A study of Mus musculus with 6 samples.

Results

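Endolymph ion transport genes were read in cochlear explants as 9 genes chosen by symbol: Kcnq1, Kcne1, Slc12a2, Bsnd, Esrrb, Kcnj10, Atp1b2, Slc26a4 and Cldn11. All 9 were among the 24421 gene symbols counted, and 8 of them, all but Bsnd, had enough reads to be among the 15988 genes tested. The samples were 3 control and 3 neomycin-treated pools of wild-type mouse cochleae, each pool holding 6 to 8 cochleae. Cochleae were taken at postnatal day 2, kept in culture for 12 h, exposed to neomycin at 1 mM for 6 h and then cultured with EdU at 10 µM for a further 5 days. Neomycin is an aminoglycoside antibiotic that kills hair cells (HCs), and EdU is a thymidine analog that marks DNA synthesis. The treatment label alone separated the groups, since the culture description was worded identically for all 6 samples, and control was taken to mean culture without neomycin. The strain and sex of the mice, and whether the pools came from separate litters, were not given in the sources used here, so p-values measure the spread between these pools.

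Endolymph is the potassium-rich fluid that bathes the apical surface of HCs, and the stria vascularis of the lateral wall secretes it. Strial marginal cells take up potassium with chloride and sodium across their basolateral membrane through the cotransporter encoded by Slc12a2 and through the sodium pump, and release potassium into the endolymph through the Kcnq1 and Kcne1 channel. Intermediate cells, which are melanocytes, set the endocochlear potential through the Kcnj10 potassium channel, basal cells seal the layer with Cldn11 tight junctions, and Slc26a4 exchanges chloride for bicarbonate in root and spindle cells next to the stria.

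In its account of explant culture, the study described removal of the stria vascularis anlage together with the modiolus and the tectorial membrane. The markers of the strial layers were therefore read before the genes themselves. Genes for melanin synthesis and melanocyte identity were few in reads: Tyrp1, an enzyme of melanin synthesis, had 1 to 6 reads a library, the melanocyte transcription factor Pax3 had 0 to 11, Mlana, a melanosome protein, had 2 to 24, and Tyr, tyrosinase, had 11 to 35. The melanin enzyme Dct reached 310 to 773 reads, and Pmel, which builds melanosome fibrils, 746 to 1017, in totals of 50471116 to 66068108 reads per library. The 8 intermediate cell and melanocyte markers summed to 40.6 to 55.5 CPM (counts of reads put on one scale for all libraries) in control and 35.6 to 43.2 CPM after neomycin, and the 7 marginal cell markers to 218 to 274 CPM and 211 to 230 CPM. Most of the marginal sum came from Lrp2, an endocytic receptor of many absorptive epithelia, at 137 ± 20.2 CPM in control (SD, n = 3 here and throughout). Among the same intermediate cell and melanocyte markers, the melanocyte regulator Mitf had 406 to 573 reads and the potassium channel gene Kcnj13 242 to 901. No stria or undissected cochlea was among the samples, so how much pigment cell RNA was lost cannot be told. The 9 genes are accordingly described as ion transport genes of an explant in which several pigment genes had few reads. They are not described as levels of a stria vascularis.

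None of the 8 tested genes was differentially expressed under the study's thresholds, an adjusted p-value under 0.05 with a fold change over 1.5, against 8.84% of all genes tested (2.24% higher after neomycin and 6.60% lower). Without the fold change threshold, 3 of the 8 had an adjusted p under 0.05 by edgeR's quasi-likelihood test with Benjamini-Hochberg adjustment over all genes tested. Cldn11 was higher after neomycin, against a background of 12.9% of genes higher at that threshold, while Kcnj10 and Atp1b2 were lower, against 16.1% lower. At an unadjusted p under 0.05, 5 genes passed, and none of these did so with a fold change over 1.5. DESeq2 and limma-voom also called 0 of the 8 with the fold change threshold, and without it 5 and 4. The control and neomycin samples did not overlap for Slc12a2, Kcnj10, Atp1b2 and Cldn11, 4 of 8, beside 43.5% of all genes tested. The median log2 fold change over the 8 was -0.18, against -0.0041 over all genes tested. In bulk RNA, fewer cells of a type and less RNA per cell cannot be told apart, and this holds for every difference given here.

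**Figure D1:**
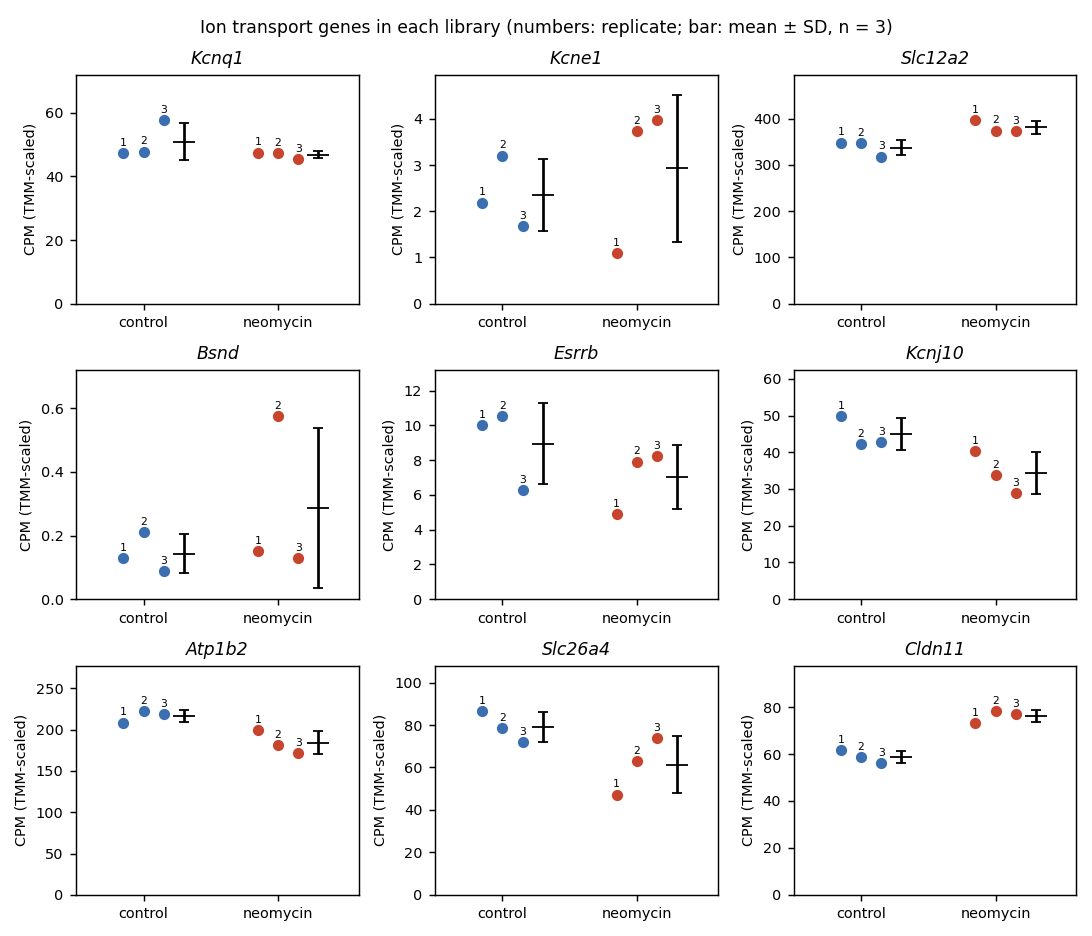
CPM, scaled by TMM (edgeR's trimmed mean of M-values), of each of the 9 ion transport genes in the 3 control libraries (blue) and the 3 neomycin libraries (red), with the replicate number beside each point and the mean ± SD as a black bar; every vertical axis starts at 0. The groups are apart for Slc12a2, Kcnj10, Atp1b2 and Cldn11, and neomycin 1 is the lowest neomycin library for Kcne1, Esrrb and Slc26a4.

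Expression level differed widely among the genes. Per kilobase of exon, which allows levels of different genes to be compared, Atp1b2 was the highest in control at 53.0 ± 1.72 CPM per kb. Cldn11 at 31.4 ± 1.46 CPM per kb and Slc12a2 at 30.9 ± 1.56 CPM per kb came next, and their control samples overlapped. Below them stood Slc26a4 at 25.4 ± 2.30, Kcnq1 at 12.4 ± 1.41, Kcnj10 at 8.32 ± 0.787, Esrrb at 1.48 ± 0.386, Kcne1 at 0.732 ± 0.242 and Bsnd at 0.0520 ± 0.0225 CPM per kb. Every other pair of neighbours in this order was apart in the control samples. The order of the means was the same after neomycin, from 45.1 ± 3.43 CPM per kb for Atp1b2 to 0.104 ± 0.0914 CPM per kb for Bsnd. The regulatory subunits Kcne1 and Bsnd thus lay at the bottom of the order, whereas Atp1b2, a beta subunit of the sodium pump, lay at the top.

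Kcnq1 (chr7:143106362-143427042, plus strand, mm10) encodes the pore-forming subunit of the channel that carries potassium into the endolymph. Its level was 47.4, 47.8 and 57.6 CPM in control 1 to 3 and 47.4, 47.3 and 45.5 CPM in neomycin 1 to 3. Control 3 stood above the other libraries, and the remaining 5 lay close together, so the groups overlapped. Means of 50.9 ± 5.78 and 46.8 ± 1.08 CPM gave a log2 fold change of -0.12 (SE 0.08, adjusted p = 0.298, edgeR). Without control 3 it was -0.014 (adjusted p = 0.899). Kcnq1 shares 121 bp of exon with the antisense gene Kcnq1ot1 on the opposite strand, and the strand setting of the read counting was not given in the sources used here. Kcnq1ot1 was at 7.94 ± 1.03 CPM in control and 9.17 ± 0.601 CPM after neomycin.

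Kcne1 (chr16:92345982-92359468, minus strand) encodes the accessory subunit that slows the gating of Kcnq1. It had 151, 167 and 94 reads in control 1 to 3, or 2.19, 3.20 and 1.67 CPM. After neomycin the reads numbered 58, 220 and 213, or 1.09, 3.73 and 3.97 CPM. Neomycin 1 was the lowest of all 6 libraries, whereas neomycin 2 and 3 were the highest, and the groups overlapped. The log2 fold change of 0.32 came with a standard error of 0.39 (adjusted p = 0.574, edgeR), so the difference was smaller than its own error. It was 0.71 without neomycin 1 and 0.60 without control 2, but 0.14 without control 3, 0.11 without neomycin 2 and 0.04 without neomycin 3. Relative to Kcnq1 in the same library, Kcne1 reads per kb were 0.0588, 0.0853 and 0.0370 in control and 0.0293, 0.10 and 0.111 after neomycin. The groups overlapped in this ratio (exact two-sided permutation test, p = 0.7; 3 against 3 allows no p below 0.1).

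Slc12a2 encodes the sodium, potassium and chloride cotransporter that loads marginal cells, and it is also expressed in fibrocytes and many epithelia. It was measured at 348, 346 and 318 CPM in control 1 to 3 and at 396, 374 and 372 CPM in neomycin 1 to 3. Every neomycin library lay above every control library, by a mean of 12.9%, from 337 ± 17.1 to 381 ± 13.3 CPM. The log2 fold change of 0.17 (SE 0.08) had an adjusted p of 0.104 by edgeR, and of 0.0471 by DESeq2's Wald test. With scaling by total counts the log2 fold change was 0.105. Gene length bore on this value: Slc12a2 has 10920 bp of exon, and across all genes the median log2 fold change was 0.21 in the quartile of shortest genes (55 to 2623 bp) and -0.18 in that of the longest (6618 to 123179 bp). After correction for exon length, the Slc12a2 log2 fold change was 0.37 with an adjusted p of 0.00102 (edgeR). The reads per kb of Slc12a2 relative to Kcnq1 were 2.75, 2.72 and 2.07 in control and 3.13, 2.96 and 3.06 after neomycin, without overlap, at the smallest p that 3 against 3 allows (exact two-sided permutation test, p = 0.1).

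Bsnd (chr4:106483456-106492283, minus strand) encodes barttin, an accessory subunit of chloride channels in the marginal cell membrane. Its reads numbered 9, 11 and 5 in control 1 to 3 and 8, 34 and 7 in neomycin 1 to 3. Neomycin 2 alone stood out, at 0.576 CPM against 0.0890 to 0.211 CPM in the other 5 libraries. Bsnd did not pass the filter on low counts. Tested without that filter, its log2 fold change was 1.00 with a standard error of 0.80 and an adjusted p of 0.404 (edgeR).

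Esrrb (chr12:86361117-86521628, plus strand) encodes a nuclear receptor required for marginal cell identity. It was measured at 10.0, 10.5 and 6.26 CPM in control 1 to 3 and at 4.90, 7.91 and 8.21 CPM in neomycin 1 to 3. Control 3 lay below neomycin 2 and 3, so the groups overlapped, and neomycin 1 was the lowest library. The log2 fold change was -0.35 (SE 0.22, adjusted p = 0.247, edgeR). It was -0.15 without neomycin 1, -0.21 without control 2 and -0.54 without control 3. Of the other genes expressed in marginal cells, none of the 7 markers was differentially expressed by edgeR, DESeq2 or limma-voom, and 1 had an unadjusted p under 0.05 (edgeR).

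Within groups, the genes varied together in part. Neomycin 1 was below the mean of its group for Kcne1 (by -1.21 on the log2 scale), Esrrb (-0.48) and Slc26a4 (-0.35), while it was above for Kcnj10 (0.24) and near the mean for Kcnq1 (0.02). Bsnd did not share this order: neomycin 1 was at -0.58 with 8 reads, but neomycin 3 was lower still, at -0.78 with 7 reads. Neomycin 2 had 34 reads of Bsnd. Control 3 was below its group mean for Kcne1 (-0.44), Esrrb (-0.48) and Slc26a4 (-0.13) and above it for Kcnq1 (0.18). Control 3 held the lowest control value for 6 of the 9 genes, neomycin 3 the lowest neomycin value for 5, and neomycin 2 for none. The summed marginal cell markers were also lowest in control 3 among the controls (218 CPM, against 274 and 260 CPM in control 1 and 2) but highest in neomycin 1 among the neomycin libraries (230 CPM, against 220 and 211 CPM in neomycin 2 and 3). The part of marginal cells in these differences was not tested.

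Kcnj10 and Cldn11 had the smallest adjusted p-values among the lower and the higher genes, and their promoters are shown for that reason. The sequences are RefSeq promoters of GRCm38.p6, from 250 bases before the transcription start to 50 bases of the transcript, 5′ to 3′ on the plus strand, chr1:172340960-172341259 for Kcnj10 and chr3:31149670-31149969 for Cldn11. Capitals mark a match to the SOX motif ACAAAG, which in Kcnj10 begins at the first transcribed base.
Kcnj10: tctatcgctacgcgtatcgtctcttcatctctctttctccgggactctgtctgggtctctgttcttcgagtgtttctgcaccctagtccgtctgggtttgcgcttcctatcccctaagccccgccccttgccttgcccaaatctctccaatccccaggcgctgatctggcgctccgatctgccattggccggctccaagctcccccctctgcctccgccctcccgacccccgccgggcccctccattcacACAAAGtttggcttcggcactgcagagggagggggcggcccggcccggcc
Cldn11: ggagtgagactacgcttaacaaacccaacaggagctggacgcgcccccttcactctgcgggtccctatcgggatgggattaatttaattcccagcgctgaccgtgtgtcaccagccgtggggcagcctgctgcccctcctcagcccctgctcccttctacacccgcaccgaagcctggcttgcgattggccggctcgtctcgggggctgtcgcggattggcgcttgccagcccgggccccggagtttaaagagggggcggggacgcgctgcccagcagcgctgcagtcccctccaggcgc

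RefSeq promoters were at hand for 4 of the 9 genes (Kcnj10, Cldn11, Slc26a4 and Esrrb, the last with 2), and 3 motifs were searched on both strands. The SOX motif ACAAAG, bound by factors such as Sox10 of melanocytes and glia, was in 1 of these 5 promoters, that of Kcnj10, and in 18.7% of all 32851 promoters. The MITF motif TCANGTG, named for the melanocyte regulator Mitf, was in 1 of the 5, an Esrrb promoter, and in 14.3% of all. The estrogen-related receptor motif TNAAGGTCA, the binding sequence of the Esrrb family, was in 0 of the 5 and in 1.28% of all. These are matches of letters in a window of 300 bases and say nothing of binding. Sox10 itself was at 355 ± 21.7 CPM in control and 347 ± 1.95 CPM after neomycin, and Mitf at 8.13 ± 0.803 and 8.48 ± 0.855 CPM.

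Kcnj10 (chr1:172341210-172374085, plus strand), whose promoter is printed above, encodes the inwardly rectifying potassium channel Kir4.1 of intermediate cells, which supporting cells and satellite glia also express. It was measured at 49.9, 42.2 and 42.8 CPM in control 1 to 3 and at 40.2, 33.7 and 28.9 CPM in neomycin 1 to 3. All neomycin libraries lay below all control libraries, although neomycin 1 was close to control 2. The means were 45.0 ± 4.26 and 34.3 ± 5.70 CPM, a difference of -23.8% of the control mean, and the log2 fold change was -0.39 (SE 0.11, adjusted p = 0.0213, edgeR). The adjusted p was above 0.05 when control 1 (0.0755), neomycin 2 (0.0816) or neomycin 3 (0.0864) was left out.

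Other channel and marker genes beside Kcnj10 moved in different directions. Kcnj16, which forms channels with Kcnj10 in root and other epithelial cells, was at 59.5 ± 5.55 CPM in control and 69.0 ± 7.57 CPM after neomycin (log2 fold change 0.21, adjusted p = 0.101, edgeR). Kcnj13, which encodes the inward rectifier Kir7.1, fell from 11.9, 13.2 and 16.0 CPM to 5.52, 5.88 and 4.51 CPM (log2 fold change -1.37, adjusted p = 5.74e-05, edgeR). It was the only one of the 5 tested intermediate cell and melanocyte markers to be differentially expressed. The 8 supporting cell markers summed to 658 to 670 CPM in control and 542 to 628 CPM after neomycin. Of these, 2 were lower past both thresholds, Fgfr3, a growth factor receptor of pillar and Deiters' cells, and Prox1, a transcription factor of the same cells. At an adjusted p under 0.05 alone, 4 of the 8 were lower. Sox2 (log2 fold change 0.21, adjusted p = 0.0640, edgeR) and Slc1a3 (0.11, adjusted p = 0.298, edgeR) went the other way, short of that threshold. The 10 Schwann and satellite glia markers summed to 659 to 736 and 699 to 714 CPM, with S100b, a calcium-binding glial protein, higher and Erbb3, a neuregulin receptor, lower. The part of either cell type in the Kcnj10 difference was not tested.

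Atp1b2 (chr11:69599736-69605942, minus strand) encodes a beta subunit of the sodium pump, the one that marginal cells and glia use. Its level was 209, 222 and 218 CPM in control 1 to 3 and 199, 182 and 172 CPM in neomycin 1 to 3. No library of one group reached the other, and the means of 216 ± 7.01 and 184 ± 14.0 CPM differed by -14.9% of the control mean. The log2 fold change was -0.23 (SE 0.08, adjusted p = 0.0389, edgeR). This adjusted p was above 0.05 whenever any library other than neomycin 1 was left out, from 0.0508 without control 1 and 0.0616 without control 3 to 0.137 without control 2, 0.144 without neomycin 2 and 0.170 without neomycin 3.

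Other beta subunits of the pump were read beside Atp1b2. For Atp1b1, the widely expressed form, edgeR gave a log2 difference of -0.06 (adjusted p = 0.672). Atp1b3, the remaining beta form, was at 166 ± 6.52 and 195 ± 4.71 CPM (0.23, adjusted p = 0.0268, edgeR), but with a correction for exon length at 0.09 (adjusted p = 0.311). Reads per kb of Atp1b2 relative to Atp1b1 were 0.105, 0.102 and 0.0962 in control and 0.0972, 0.0884 and 0.0816 after neomycin, where control 3 lay below neomycin 1 (exact two-sided permutation test, p = 0.2).

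Slc26a4 (chr12:31519827-31559969, minus strand) encodes pendrin, the exchanger that sets endolymph bicarbonate, in spindle, root and outer sulcus cells. It was measured at 86.4, 78.4 and 72.1 CPM in control 1 to 3 and at 47.2, 63.0 and 73.8 CPM in neomycin 1 to 3. Neomycin 3 lay above control 3, so the groups overlapped, and neomycin 1 was far below the rest. The means were 79.0 ± 7.17 and 61.4 ± 13.3 CPM, a difference of -22.3% of the control mean. In log2 the fold change was -0.36 (SE 0.13), and its adjusted p of 0.0512 by edgeR was just over the threshold. It was 0.0234 by DESeq2's Wald test, 0.0431 by limma-voom and 0.0201 with a correction for exon length in edgeR, where the log2 fold change was -0.44. Left-out libraries moved the adjusted p from 0.0114 without neomycin 3 to 0.145 without control 1, and it was 0.136 without neomycin 1. The log2 fold change itself was -0.21 without neomycin 1 and -0.52 without neomycin 3. Of the 8 root, spindle and outer sulcus markers none was differentially expressed by edgeR, DESeq2 or limma-voom (2 had an unadjusted p under 0.05 by edgeR). Their sum, nearly all of it the matrix proteoglycan Epyc, ran from 5980 to 6466 CPM in control and from 6791 to 7202 CPM after neomycin.

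Cldn11 (chr3:31149920-31164324, plus strand), whose promoter is printed above, encodes the claudin of basal cell tight junctions, also present in myelinating oligodendrocytes. It was measured at 61.6, 58.6 and 56.1 CPM in control 1 to 3 and at 73.3, 78.2 and 77.0 CPM in neomycin 1 to 3. The groups lay well apart, and the spread within each was small: 58.8 ± 2.74 CPM in control and 76.1 ± 2.57 CPM after neomycin, 29.5% higher. The log2 fold change of 0.37 (SE 0.07, adjusted p = 0.00232, edgeR) kept an adjusted p between 0.00246 and 0.0205 when each library was left out in turn. Cldn11 has 1870 bp of exon, against a median of 4254 bp over the genes tested, and so belonged to the quartile of shortest genes. With the correction for exon length its log2 fold change was 0.17 and its adjusted p 0.107 (edgeR). Cldn11 and Slc12a2 thus exchanged places across the threshold under that correction.

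Other genes higher after neomycin stood beside Cldn11. Among 4 basal cell markers, Sox8, a transcription factor also of glia and supporting cells, was higher (5.72 ± 1.93 to 9.19 ± 1.83 CPM, log2 fold change 0.68, adjusted p = 0.0327, edgeR), with overlapping groups, while the summed level was 548 to 595 CPM in control and 458 to 526 CPM after neomycin. The 7 fibrocyte markers summed to 544 to 671 CPM in control and 1132 to 1335 CPM after neomycin, of which Otos, the secreted protein otospiralin of fibrocytes, gave 85.2 ± 30.7 and 550.3 ± 100.5 CPM (log2 fold change 2.69, adjusted p = 5.01e-06, edgeR). Ucma, a cartilage matrix protein, was the other fibrocyte marker past both thresholds, from 35.7 ± 3.27 to 78.5 ± 3.48 CPM (1.14, adjusted p = 2.11e-06). The other 5 are named after their values were seen, and they went both ways. Aldh1a2, an enzyme of retinoic acid synthesis (0.42, adjusted p = 0.00281), and Tbx18 (0.22, adjusted p = 0.0498) were higher at a smaller fold change. Short of the threshold, edgeR gave 0.42 for Coch, the matrix protein cochlin (adjusted p = 0.0503), -0.52 for the transcription factor Pou3f4 (adjusted p = 0.0734) and -0.61 for the transporter Slc4a11 (adjusted p = 0.0845), in log2. The part of fibrocytes in the Cldn11 and Slc12a2 differences was not tested.

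**Figure D2:**
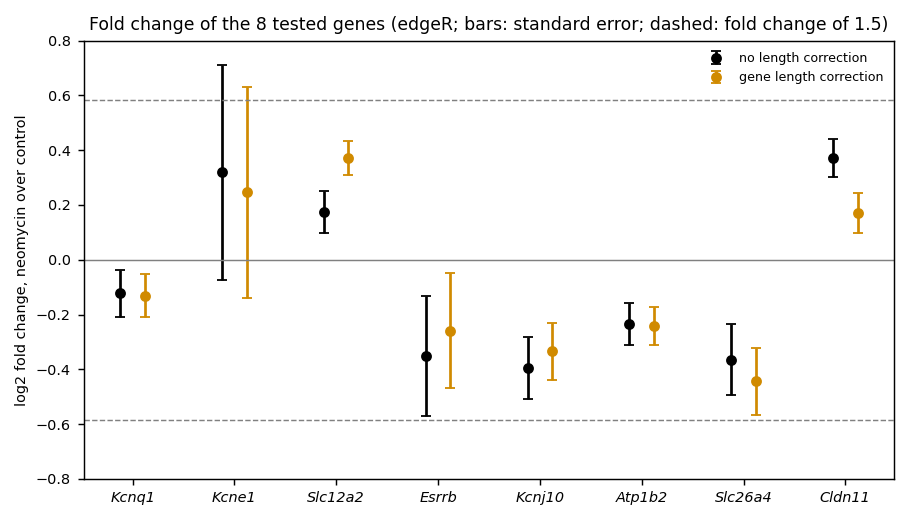
Log2 fold change, neomycin over control, of the 8 tested ion transport genes from edgeR, with standard errors as bars, without (black) and with (orange) a correction for exon length; dashed lines mark a fold change of 1.5. No point lies beyond the dashed lines, and the correction lowers Cldn11 from 0.37 to 0.17 and raises Slc12a2 from 0.17 to 0.37.

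The machinery around the 9 genes was read from 5 lists of 73 ion transport and lateral wall genes in all, of which 67 were tested. Of these, 8 were differentially expressed (11.9%, against 8.84% of all genes), 2 higher and 6 lower, and 15 had an adjusted p under 0.05, 6 higher and 9 lower. The median log2 fold change was -0.05. The groups did not overlap for 23 of the 67, beside 43.5% of all genes.

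Of 18 genes for potassium transport and the sodium pump, 1 rose and 4 fell (median log2 fold change -0.05). Kcne3, an accessory subunit that can pair with Kcnq1, fell from 5.00, 5.08 and 5.94 CPM to 1.32, 1.81 and 1.32 CPM (log2 fold change -1.84, SE 0.20, adjusted p = 7e-05, edgeR), the largest fall in the 5 lists. Kcnj13 is given beside Kcnj10. Fxyd1, which encodes phospholemman, a regulator of the sodium pump, rose from 70.7, 62.3 and 81.6 CPM to 134, 133 and 137 CPM (0.91, SE 0.09, adjusted p = 3.17e-05). Its relative Fxyd2, the gamma subunit of the pump, fell from 3.81 ± 0.200 to 2.44 ± 0.642 CPM (-0.64, adjusted p = 0.0426), and this call was lost when any library other than neomycin 2 was left out, at adjusted p-values from 0.0857 to 0.142.

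Of 10 chloride channels and cotransporter kinases, none was differentially expressed by edgeR, DESeq2 or limma-voom, 2 had an unadjusted p under 0.05 (edgeR), and the median log2 fold change was -0.04. Of the kinases that switch on Slc12a2, the upstream kinase Wnk1 was at 200 ± 24.0 CPM in control and 173 ± 12.7 CPM after neomycin (log2 fold change -0.21, adjusted p = 0.111), and its targets Stk39 and Oxsr1 had log2 fold changes of -0.05 (adjusted p = 0.621) and -0.04 (adjusted p = 0.691). With the correction for exon length, Wnk1 turned to 0.09 (adjusted p = 0.326) and Oxsr1 to 0.02 (adjusted p = 0.876). Wnk2, a kinase of the same family named after its values were seen, was at 53.7 ± 10.6 CPM in control and 43.3 ± 0.599 CPM after neomycin without overlap (-0.31, adjusted p = 0.0549, edgeR, and -0.16 with the length correction).

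Of 16 genes for bicarbonate and proton transport, 13 were tested, and 1 rose and 1 fell (median log2 fold change -0.25). Car3, a cytosolic carbonic anhydrase, rose from 86.4, 99.5 and 74.4 CPM to 253, 217 and 223 CPM (log2 fold change 1.41, SE 0.10, adjusted p = 2.66e-06, edgeR), the largest rise in the 5 lists. Car12, a membrane-bound carbonic anhydrase, fell from 154, 115 and 99.8 CPM to 63.7, 73.1 and 82.3 CPM (-0.75, SE 0.14, adjusted p = 0.00217), and without control 1 it stood at -0.55, short of the fold change threshold. The carbonic anhydrase genes therefore went both ways. Foxi1, the transcription factor that drives Slc26a4 in the endolymphatic sac, had 2 to 11 reads and was not tested. Slc4a9, a bicarbonate transporter, and Atp6v1g3, a proton pump subunit, had 3 reads or fewer in every library.

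Of 14 sodium and water transport genes, 12 were tested and none was differentially expressed by edgeR, DESeq2 or limma-voom, while 3 had an unadjusted p under 0.05 (edgeR; median log2 fold change -0.11). Of 15 lateral wall transcription factors, 14 were tested and 1 fell (median log2 fold change 0.02): Eya4, a transcriptional coactivator whose loss causes deafness, from 72.7, 69.2 and 49.3 CPM to 43.8, 39.0 and 32.0 CPM (log2 fold change -0.74, SE 0.14, adjusted p = 0.0026, edgeR). With a correction for exon length Eya4 was at -0.56, short of the fold change threshold. Some genes with an adjusted p under 0.05 at a smaller fold change are named after their values were seen: the water channel Aqp1 (log2 fold change -0.43, adjusted p = 0.00974), the bicarbonate transporter Slc4a7 (-0.43, adjusted p = 0.00687, but -0.18 and adjusted p = 0.183 with the correction for exon length), the carbonic anhydrase Car2 (-0.25, adjusted p = 0.0173, and -0.39 with that correction), and the T-box factors Tbx1 (0.40, adjusted p = 0.003) and Tbx18 (0.22, adjusted p = 0.0498).

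**Figure D3:**
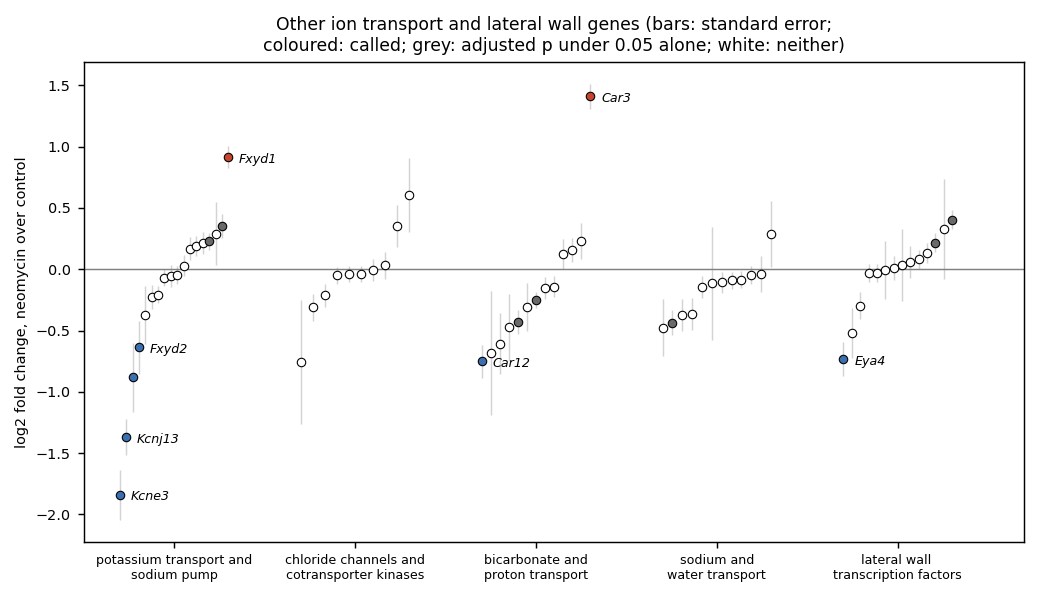
Log2 fold change, neomycin over control, of the tested genes of 5 lists of ion transport and lateral wall genes, each list sorted from low to high, with standard errors as bars; red and blue points are genes higher or lower at an adjusted p under 0.05 and a fold change over 1.5, and dark grey points pass the adjusted p alone. The 2 red points are Fxyd1 (0.91) and Car3 (1.41), and the lowest point is Kcne3 (-1.84). Not every coloured point carries a name.

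Summed marker levels of the remaining cell types are given next, as RNA levels and not as numbers of cells. The 12 HC markers summed to 830 to 982 CPM in control and 299 to 352 CPM after neomycin. Of these, 10 fell past both thresholds, with the largest fall in the outer HC motor Slc26a5, from 25.8 ± 2.33 to 1.61 ± 0.280 CPM. Myo6 was lower at a smaller fold change (log2 fold change -0.36, adjusted p = 0.00865, edgeR). Atoh1 was at -0.05 (adjusted p = 0.900, edgeR), with overlapping groups. The 7 neuron markers summed to 143 to 215 and 115 to 119 CPM, with Nefl, Nefm and Nefh, the neurofilament chains, and Snap25, a synaptic vesicle fusion protein, lower. Control 1 alone gave the upper sum (215 CPM, against 154 and 143 CPM in control 2 and 3), and the groups overlapped for Nefh. Stmn2 was at 46.9 ± 1.12 and 48.3 ± 4.42 CPM (log2 fold change 0.04). Tubb3 (-0.29, adjusted p = 0.143, edgeR) and Prph (-0.35, adjusted p = 0.272, edgeR) were short of the threshold. The 7 macrophage markers summed to 59.5 to 76.4 and 81.6 to 103 CPM, with the lysosomal protein Cd68 and the complement chain C1qa higher. The 9 endothelium and pericyte markers summed to 400 to 450 and 369 to 413 CPM, which overlapped, with Pecam1, Cdh5, Kdr and Kcnj8 lower. Most of this sum was Emcn, at 252 ± 12.1 and 273 ± 26.2 CPM (log2 fold change 0.12, adjusted p = 0.329, edgeR). Pdgfrb was lower at a smaller fold change (-0.37, adjusted p = 0.00342, edgeR), without overlap. The rest had log2 fold changes of -0.05 for Rgs5, -0.21 for Tek and -0.45 for Cspg4, short of the adjusted p threshold. The 4 Reissner membrane and roof markers summed to 1451 to 1947 and 2040 to 2203 CPM with none differentially expressed (edgeR, DESeq2 or limma-voom; 2 of 4 at an unadjusted p under 0.05 by edgeR). Of these 4, 1 had an adjusted p under 0.05 at a smaller fold change, Vmo1 (log2 fold change 0.45, adjusted p = 0.0166, edgeR), without overlap. The 6 mesenchyme markers summed to 5762 to 6275 and 6156 to 6384 CPM with the proteoglycan Dcn higher and the collagen Col1a1 lower. Another collagen, Col3a1, was lower at a smaller fold change (log2 fold change -0.47, adjusted p = 0.00364, edgeR), without overlap. Short of the adjusted p threshold, edgeR gave 0.06 for Col1a2, 0.10 for Lum and -0.22 for Pdgfra, in log2. Both the HC and the fibrocyte sums shifted by more than any of the 8 tested ion transport genes. Most of the fibrocyte shift was the rise of Otos (85.2 ± 30.7 to 550.3 ± 100.5 CPM), so that sum does not stand for fibrocyte markers in general.

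**Figure D4:**
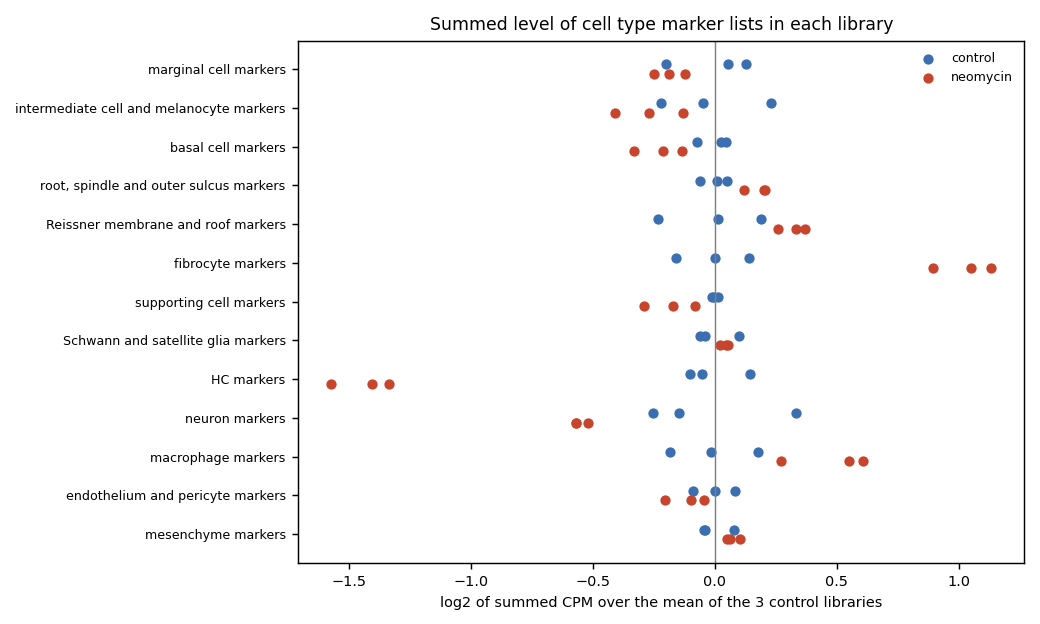
Log2 of the summed CPM of each of 13 cell type marker lists in each library over the mean of the 3 control libraries (blue, control; red, neomycin). HC markers (299 to 352 CPM after neomycin against 830 to 982 CPM in control) lie furthest to the left and fibrocyte markers (1132 to 1335 CPM against 544 to 671 CPM) furthest to the right, while marginal cell markers overlap between the groups. Most of the fibrocyte rise is that of Otos.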

How the data were processed

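RNA was measured in 3 control and 3 neomycin-treated pools of cochlear explants. Per the submitters' processing notes and the study's methods, base calling used CASAVA 1.8, trimming Trimmomatic 0.23, alignment to mm10 HISAT2 and counting HTSeq. The authors deposited raw counts of reads for each gene symbol, which are whole numbers and not normalized. The strand setting, the treatment of reads that match several places and the annotation date are not given in the sources used here. Totals were 50471116 to 66068108 reads per library, and a gene at 3 counts or fewer in every library was taken as at the floor, which covers counting error only.

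Counts were scaled with TMM, filtered with filterByExpr and tested with edgeR 4.0.16 (quasi-likelihood test, R 4.3.3) over 15988 genes, with Benjamini-Hochberg adjustment. A gene was differentially expressed at an adjusted p under 0.05 and a fold change over 1.5, the study's thresholds. Standard errors are the size of the log2 fold change over the square root of F. Levels are TMM-scaled CPM. Exon lengths and coordinates came from GENCODE M21 (mm10), with a length for 99.3% of tested genes, and the length correction used a lowess offset (span 0.3). Subunit ratios used an exact permutation test written in Python 3.11.15. Alternatives were DESeq2 1.42.0, limma-voom (limma 3.58.1), other scalings, filters and fold thresholds, the length correction, the replicate number as a block, and each library left out. The scripts were tested on simulated data. Figures used matplotlib 3.10.9.

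The 9 genes, the role lists and the marker lists were chosen with earlier results of these data known, and no list was given a test of its own. Genes named are the 9, direct partners of them, genes at the floor, and from each list at most 5 differentially expressed genes by smallest p. Further members of these lists are named after their values were seen. Some genes of these lists, and 1 subunit ratio, are not reported here.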

Additional observations from a re-analysis of the deposited data

How the results depend on the processing

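Each of the 8 tested ion transport genes kept its direction under all 18 alternatives, and none passed the adjusted p and the 1.5-fold threshold together except with that fold threshold dropped, when 3 did. The number of the 8 with an adjusted p under 0.05, 3 in edgeR, was 5 with DESeq2's Wald test and 1 to 3 with 1 library left out (1 without control 1 and 1 without neomycin 2). The number differentially expressed among all genes, 1413, was 686 at a fold change over 2, 4629 with no fold threshold and 1037 to 1672 with 1 library left out. In the role lists it was 8, against 3 at a fold change over 2, 15 with no fold threshold and 5 to 9 with 1 library left out (5 without control 1). The log2 difference in ratio was 0.27 for Kcne1 to Kcnq1 and reversed to -0.041 without control 3 and -0.073 without neomycin 3 (range -0.073 to 0.888). It ran from -0.246 to -0.121 for Atp1b2 to Atp1b1 and from 0.158 to 0.365 for Slc12a2 to Kcnq1. Except where fewer libraries or another threshold made the change, the cause was not tested. Scaling by total count moved the median of all genes to -0.073.

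Samples of the 2 groups share only a replicate number: their deviations from the group means correlated at 0.165, 0.0264 and 0.0949 for numbers 1 to 3, and control 1 and 3, but not control 2, correlated best with their own number. With the number as a block, 1465 genes, 0 of the 8 and 8 role list genes were differentially expressed, and 5 of the 8 had an adjusted p under 0.05. Depth limits Bsnd (5 to 34 reads), Kcne1 (58 to 220 reads) and the pigment genes, where the lack of a call does not show the lack of a difference.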
